A study of Bos indicus with 12 samples.

Results

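The prostaglandin synthesis enzymes described here are 10 genes of the bovine corpus luteum (CL), the ovarian gland that secretes progesterone. They are *PLA2G4A*, *PLA2G4B*, *PTGS1*, *PTGS2*, *PTGES*, *PTGES2*, *PTGES3*, *AKR1B1*, *PTGDS* and *PTGIS*. They were chosen by symbol for their place in the pathway, and all 10 had 1 row each among the 15178 genes of the table. Poly-A RNA from the CL of 12 cows was sequenced on day 18, with 6 cows pregnant (P) and 6 not pregnant (NP), and each cow gave 1 library. All cows were non-lactating, multiparous *Bos indicus* cows whose ovulation had been synchronized for timed insemination. P cows had been inseminated with semen of Aberdeen Angus bulls and carried an elongated embryo. Expression of interferon-stimulated genes and serum progesterone also served to establish pregnancy and choose the cows. The 6 cows per group were then kept by the quality and quantity of their RNA. The study's other arm was synchronized and not inseminated (cyclic), so that insemination and pregnancy cannot be told apart in a comparison with that arm.

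Prostaglandins are made in 3 stages. Phospholipases A2 release arachidonic acid from membranes, cyclooxygenases turn it into the unstable intermediate PGH2, and terminal synthases convert PGH2 into PGE2, PGF2A, PGD2 or prostacyclin. In ruminants, PGF2A pulses from the uterus cause the CL to regress when no embryo is present, whereas PGE2 is regarded as protective for luteal cells. Luteal cells can also form prostaglandins themselves, so the enzymes of the gland are of interest at the time of pregnancy recognition.

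The deposited values are normalized counts, that is, reads per gene divided by a size factor of the library. They are not corrected for transcript length, so levels are compared between cows and not between genes. The CL was bulk tissue, so fewer cells of a type and less RNA per cell cannot be told apart. Reads counted on genes came to 2038858 to 7534503 per P library and 6148184 to 8253360 per NP library, and the 3 shallowest libraries were those of P cows 01, 18 and 28. Luteal markers were abundant in both groups, with a summed level over *STAR*, *CYP11A1*, *HSD3B1*, *SCARB1* and *OXT* of 189238 to 271253 normalized counts in P cows and 153210 to 276886 in NP cows. Summed markers of endothelial cells (2596 to 7363 in P, 4418 to 8210 in NP), pericytes and smooth muscle (5602 to 13089 in P, 5187 to 12351 in NP), fibroblasts (30507 to 72012 in P, 32737 to 80301 in NP) and leukocytes (591 to 1076 in P, 409.7 to 1087 in NP) overlapped between the groups. The largest term of the endothelial sum was *KDR* (2997 ± 1226 in P, 2609 ± 711 in NP). Of 6 endothelial markers, *PECAM1* (log2 fold change -2.56) and *CDH5* (-1.19) were lower in P cows with no overlap, and the other 4 did not pass. Of 6 pericyte and smooth muscle markers, *MCAM* (-1.58, no overlap) and *PDGFRB* (-0.62) were lower and *MYH11* was higher (0.92). Over all tested genes 12% were called higher, 14.8% were called lower, and 13.6% had groups that did not overlap. Of the fibroblast markers *LUM* was lower (log2 fold change -1.55) and *PDGFRA* higher (0.64), and of the leukocyte markers the T cell gene *CD3E* was higher with no overlap (0.71, adjusted p = 0.012). Of the blood cell genes, *HBB* of erythrocytes was low (20.5 ± 11.3 in P, 7.73 ± 4.33 in NP). Its highest value was 39.54 in P and 15.08 in NP cows, and only P cows brought it to the level needed for testing. Its call as higher in P cows therefore carries no weight. Another erythrocyte gene, *HBA*, was too low to be tested (4.28 ± 2.87 in P, 2.09 ± 1.59 in NP).

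The share of synthesis enzymes called higher in P cows was near that of all tested genes, and an enzyme not called may still differ. Of the 9 enzymes that reached 30 normalized counts in at least 1 cow, 1 was higher in P cows, *PLA2G4B*, 0 were lower and 8 did not pass. A gene counted as called where limma's Benjamini-Hochberg adjusted p was under 0.05 and its log2 fold change was 0.58 or more in either direction. Of these enzymes 11.1% were called, against 26.8% of all 11907 genes tested in the same way (12% higher, 14.8% lower). By edgeR and by DESeq2, 1 enzyme was called higher and 1 lower, where 26.9% and 29.3% of all tested genes were called. At an unadjusted p below 0.05 there were 4 of 9 enzymes (44.4%), against 46.1% of all tested genes. The log2 fold change was above 0 in 7 of the 9 enzymes, against 49.3% of all tested genes. The remaining enzyme, *PTGS2*, stayed below 30 in every cow and was examined without the filter, where 22.3% of 15178 genes were called (9.55% higher, 12.7% lower). In that fit 2 of the 10 enzymes were higher, *PLA2G4B* and *PTGS2*, and 0 were lower. The median log2 fold change of the 10 enzymes was 0.39, beside -0.05 for all genes without the filter. *PTGS1* passed the filter through P cows alone.

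**Figure D1:**
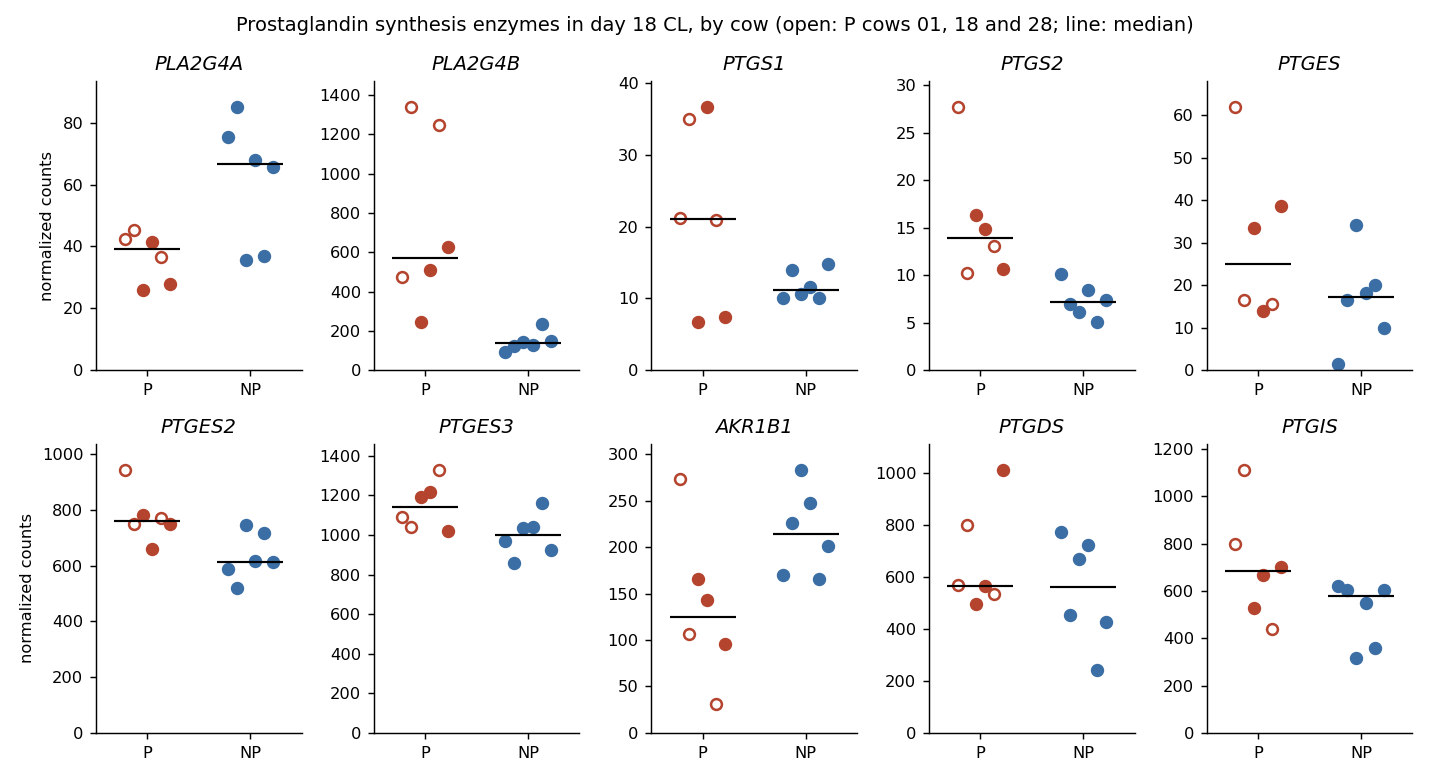
Normalized counts of the 10 enzymes in each cow, P left and NP right in every panel, on linear axes that start at 0. Each point is 1 cow, open points are P cows 01, 18 and 28, and the line is the median of 6 cows. The groups do not overlap in *PLA2G4B* and *PTGS2* and overlap in the other 8 panels.

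The first stage of the pathway held the clearest difference. *PLA2G4B* encodes a cytosolic phospholipase A2 of the group IV family, a relative of the arachidonate-selective enzyme *PLA2G4A*. Its normalized counts were 472.4, 1337, 245.1, 509.6, 1247 and 627.7 in P cows 01, 18, 19, 27, 28 and 29, against 94.1, 123.7, 143.0, 129.5, 234.6 and 148.6 in NP cows 05, 22, 30, 31, 32 and 42. The groups did not overlap, although P cow 19 (245.1) and NP cow 32 (234.6) nearly met. The mean was 739.7 ± 446 in P, against 145.6 ± 47.6 in NP (SD, n = 6 each). *PLA2G4B* rose in P cows with a log2 fold change of 2.16 (SE 0.35, 95% interval 1.42 to 2.90, limma adjusted p = 0.00115), that is, 4.47-fold. Of all genes past the filter, 13.6% also had groups that did not overlap.

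The P cows differed widely in *PLA2G4B*. The within-group SD of its log2 values was larger than that of 87.3% of the tested genes. Cows 18 and 28, which had the 2 shallowest libraries, had the highest values, as the plot of level against depth shows. In the deeper P libraries of cows 19, 27 and 29 the values were 245.1 to 627.7, again above all NP cows. Without cows 01, 18 and 28 the log2 fold change was 1.61 (adjusted p = 0.0126), in a fit that called 12.2% of the genes (4.2% higher, 8.04% lower). A fit that included library depth (log2 of its total) as a covariate gave 1.39 (adjusted p = 0.0309) and called 4.28% of the genes (1.53% higher, 2.75% lower).

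Reads of *PLA2G4B* may not all be its own. In RefSeq's annotation of a *Bos indicus* assembly, which is not the *Bos taurus* assembly the reads were mapped to, *PLA2G4B* overlaps *JMJD7*, which encodes a hydroxylase and protease, and *SPTBN5*, which encodes a beta spectrin of the membrane skeleton. *SPTBN5* rose as well, to 659.0 ± 261 normalized counts in P, against 185.4 ± 90.8 in NP (log2 fold change 1.83, SE 0.32, adjusted p = 0.0014). P cow 19 was the lowest P cow in both genes (290.6 for *SPTBN5*, 245.1 for *PLA2G4B*). NP cow 32 was the highest NP cow in both (346.8 and 234.6), so that the groups overlapped in *SPTBN5*. The highest P cow differed, with cow 29 for *SPTBN5* (969.5) and cow 18 for *PLA2G4B* (1337). For *JMJD7* the counts were 52.5 ± 8.86 in P, against 43.0 ± 8.55 in NP, a difference that did not pass (log2 fold change 0.28, adjusted p = 0.272). The sources used here do not say whether reads were counted by strand, so the share of overlapping transcripts in the *PLA2G4B* value was not tested.

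*PLA2G4A*, the cytosolic phospholipase A2 that prefers arachidonate and is activated by calcium and phosphorylation, lay the other way. Its normalized counts were 42.35, 45.24, 26.08, 41.56, 36.60 and 28.01 in P cows 01, 18, 19, 27, 28 and 29, against 75.42, 84.98, 35.75, 67.97, 36.86 and 65.66 in NP cows 05, 22, 30, 31, 32 and 42. NP cows 30 and 32 lay within the range of the P cows, and the other 4 NP cows were above all P cows. The log2 fold change was -0.68 (SE 0.26, 95% interval -1.22 to -0.13), and the adjusted p of 0.0526 missed the threshold. *PLA2G4A* passed as lower in P cows by edgeR (log2 fold change -0.77, adjusted p = 0.0321) and by DESeq2 (-0.76, adjusted p = 0.0238) on recovered reads, where edgeR called 26.9% of all genes (14.6% lower) and DESeq2 29.3% (14% higher, 15.3% lower). It also passed without P cow 18 (adjusted p = 0.0494), NP cow 30 (adjusted p = 0.0251) or NP cow 32 (adjusted p = 0.0283).

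**Figure D2:**
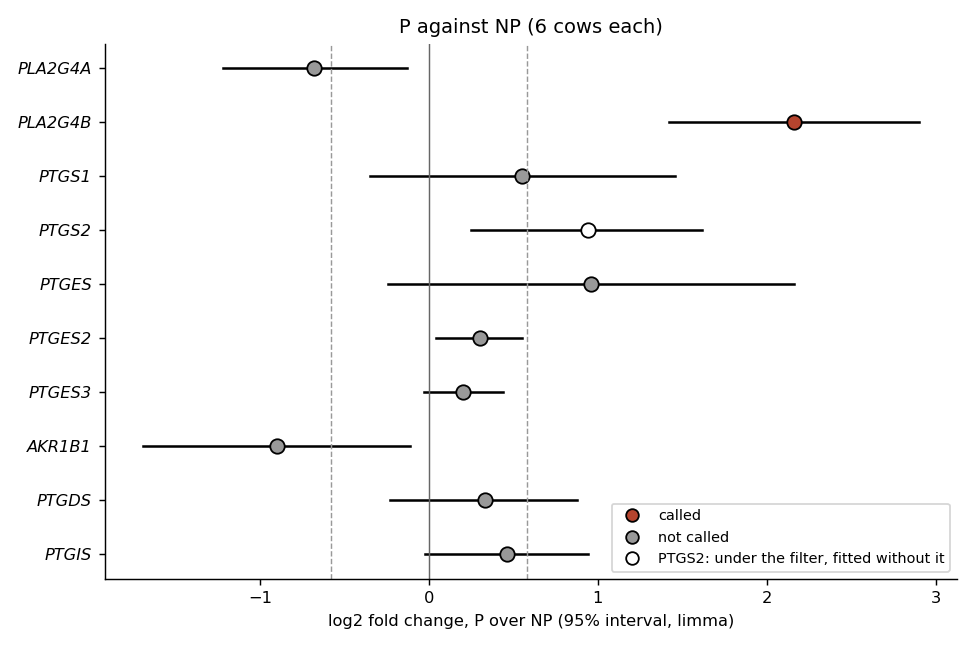
Log2 fold change of each enzyme, P over NP, with its 95% interval from limma (6 cows per group), and dashed lines at -0.58 and 0.58. The red point, *PLA2G4B* at 2.16, is the enzyme called among those past the filter, grey points were not called, and the open point is *PTGS2*, fitted without the filter.

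The cyclooxygenases were measured with few reads. *PTGS2*, the inducible cyclooxygenase, had 5 to 22 reads per P library and 6 to 13 per NP library. Its normalized counts were 27.7, 10.3, 16.4, 14.8, 13.1 and 10.7 in P cows 01, 18, 19, 27, 28 and 29, against 10.1, 6.98, 6.08, 8.42, 5.03 and 7.39 in NP cows 05, 22, 30, 31, 32 and 42. All 6 P cows were above all 6 NP cows. Across all 15178 genes, 4.98% had every P cow above every NP cow. The mean was 15.5 ± 6.42 in P and 7.34 ± 1.78 in NP cows (SD, n = 6 each). *PTGS2* rose with a log2 fold change of 0.94 (SE 0.32, 95% interval 0.25 to 1.62, limma adjusted p = 0.0411 without the filter).

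The separation of *PTGS2* rested on single reads. The lowest P value (10.28, cow 18, 5 reads) and the highest NP value (10.11, cow 05, 13 reads) were 0.17 normalized counts apart, whereas 1 read in cow 18 is worth 2.06. With 1 read fewer, cow 18 would lie at 8.22, and 2 NP cows would be at or above it. The call was lost without P cow 01, the cow with the highest value (log2 fold change 0.76, adjusted p = 0.0853), and without P cows 01, 18 and 28 (0.85, adjusted p = 0.115). It was also lost without any of P cows 19, 27 and 28 or of NP cows 22, 30, 31, 32 and 42 (adjusted p from 0.0508 to 0.0809), although the log2 fold change then stayed at 0.85 to 0.98, and in the fit with library depth (0.95, adjusted p = 0.198). It held by edgeR (1.05, adjusted p = 0.0348) and DESeq2 (1.07, adjusted p = 0.0202) on recovered reads without the filter, where edgeR called 22.1% of all genes (9.88% higher) and DESeq2 24.4% (11.4% higher). The study also singled out *PTGS2* on these samples, so that its direction is not independent evidence. Its rule asked for a count of at least 30 in 1 sample, whereas *PTGS2* had at most 22 reads and 27.7 normalized counts here. Apart from these samples, the study reported higher *PTGS2* by qPCR in luteinized granulosa cells treated with recombinant interferon tau.

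*PTGS1*, the constitutive cyclooxygenase of many tissues and of platelets, did not pass. Its normalized counts were 21.17, 34.96, 6.71, 36.61, 20.91 and 7.41 in P cows 01, 18, 19, 27, 28 and 29, against 10.11, 13.95, 10.65, 11.65, 10.05 and 14.77 in NP cows 05, 22, 30, 31, 32 and 42. The NP cows lay close together, whereas 4 P cows were above all of them and 2 P cows were below all of them. The log2 fold change was 0.55 (SE 0.43, 95% interval -0.35 to 1.46, adjusted p = 0.321), and it was 0.08 without P cows 01, 18 and 28 and -0.05 in the fit with library depth. The platelet marker *ITGA2B*, the only gene of 4 platelet markers with a row, was higher in P cows, with no overlap (239.9 ± 58.6 in P, 92.9 ± 14.9 in NP), and its part in the *PTGS1* values was not tested.

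**Figure D3:**
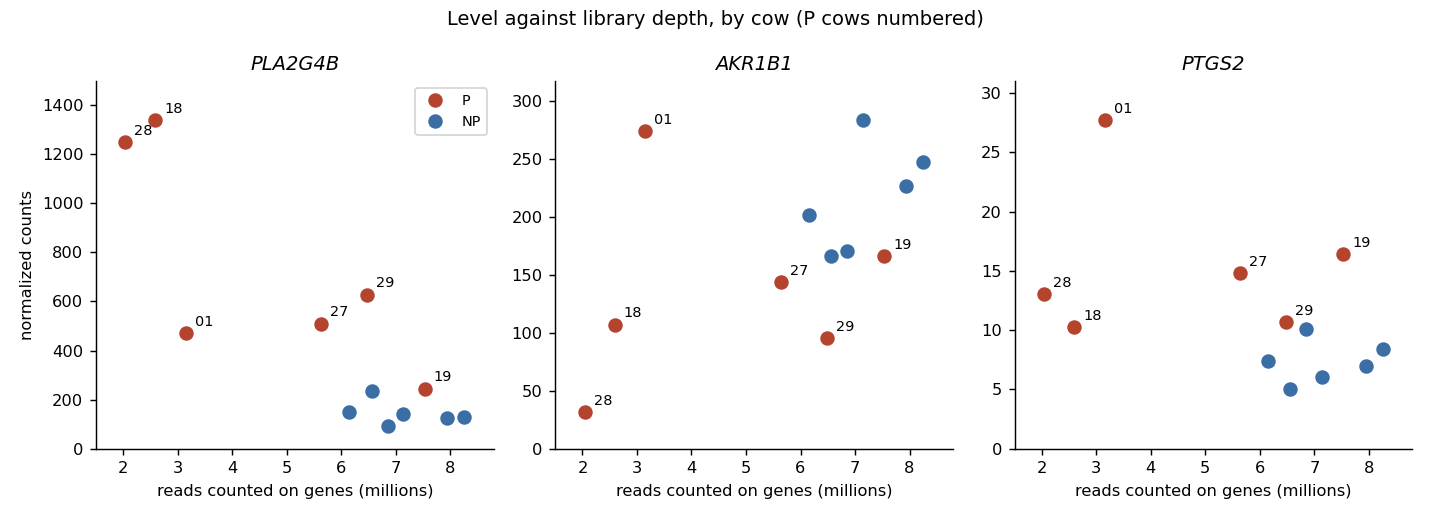
Normalized counts of *PLA2G4B*, *AKR1B1* and *PTGS2* against the reads counted on genes per library (in M), with 1 point per cow and P cows numbered. P cows 18 and 28 have few reads and the highest *PLA2G4B* values (1337 and 1247), and cow 28 has the lowest *AKR1B1* value (31.4). P cow 01 has the highest *PTGS2* value (27.7).

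*PTGES*, *PTGES2* and *PTGES3* are known as PGE2 synthases, and 0 of the 3 passed the test. *PTGES*, the inducible microsomal PGE synthase that works together with *PTGS2*, had 61.9, 16.4, 33.5, 13.8, 15.7 and 38.7 normalized counts in P cows 01, 18, 19, 27, 28 and 29, against 1.56, 16.5, 34.2, 18.1, 20.1 and 9.85 in NP cows 05, 22, 30, 31, 32 and 42. P cows 01 and 29 were above all NP cows, and NP cow 05, with 2 reads, was far below the rest. The log2 fold change of 0.96 (SE 0.56, 95% interval -0.24 to 2.16, adjusted p = 0.192) has an interval that holds changes of either sign, and without NP cow 05 it was 0.47. The within-group SD of *PTGES* was larger than that of 96.2% of the tested genes.

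*PTGES2*, a membrane-associated PGE synthase, and *PTGES3*, a cytosolic PGE synthase also known as the HSP90 cochaperone p23, were the steadiest enzymes. *PTGES2* had 943.1, 750.5, 782.3, 659.0, 771.2 and 748.8 normalized counts in P cows 01, 18, 19, 27, 28 and 29, against 588.6, 521.3, 744.6, 615.0, 715.4 and 612.3 in NP cows 05, 22, 30, 31, 32 and 42. All P cows but cow 27 were above all NP cows, yet the difference was small (log2 fold change 0.30, SE 0.12, 95% interval 0.04 to 0.55) and did not pass (adjusted p = 0.0683). *PTGES3* ranged from 1022 to 1328 (median 1142) in P and from 860.6 to 1160 (median 1001) in NP cows (log2 fold change 0.20, SE 0.11, adjusted p = 0.164). The upper ends of both intervals (0.55 and 0.44) lie below the fold minimum of 0.58. Within groups, 6.85% of tested genes varied less than *PTGES2* and 2.89% less than *PTGES3*.

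*AKR1B1*, an aldo-keto reductase that forms PGF2A from PGH2 in bovine endometrium, leaned to lower values in P cows. It had 273.6, 106.9, 166.2, 143.5, 31.4 and 95.6 normalized counts in P cows 01, 18, 19, 27, 28 and 29, against 170.3, 226.4, 282.9, 247.3, 165.9 and 201.1 in NP cows 05, 22, 30, 31, 32 and 42. Of the P cows, 4 were below all NP cows, cow 19 was level with the lowest NP cows, and cow 01 lay among the highest NP cows. The log2 fold change of -0.90 (SE 0.37, 95% interval -1.69 to -0.11) missed the threshold (adjusted p = 0.0727). Without P cow 01 it passed (-1.15, adjusted p = 0.0207), without P cow 28, which had 12 reads, it was -0.53, and with the covariate for library depth it was -0.38 (adjusted p = 0.614). Leaving out P cows 01, 18 and 28 together gave -0.68 (adjusted p = 0.0546), which also missed the threshold. *AKR1B1* belongs to a family of similar aldo-keto reductases, so reads of close copies may have been assigned differently.

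*PTGDS* and *PTGIS* complete the list. *PTGDS*, the lipocalin-type PGD2 synthase, had 497.0 to 1011 normalized counts (median 565.4) in P and 242.9 to 772.9 (median 561.0) in NP cows. The groups overlapped, with 2 P cows above all NP cows and 3 NP cows below all P cows. The log2 fold change of *PTGDS* was 0.33 with an SE of 0.26 (adjusted p = 0.338), and without NP cow 32 its log2 fold change was 0.11. *PTGIS*, the prostacyclin synthase of endothelial and smooth muscle cells, had 796.5, 1110, 529.0, 666.9, 439.2 and 701.0 in P cows 01, 18, 19, 27, 28 and 29, against 619.7, 605.6, 317.2, 550.3, 359.4 and 604.9 in NP cows 05, 22, 30, 31, 32 and 42. Of the P cows, 4 were above all NP cows and the other 2 lay inside the NP range. *PTGIS* did not pass (log2 fold change 0.46, SE 0.23, 95% interval -0.02 to 0.94, adjusted p = 0.124). Of its possible source cells, 2 of 6 endothelial markers were lower in P cows, and of 6 pericyte and smooth muscle markers *MYH11* was higher and *MCAM* and *PDGFRB* were lower. Over all tested genes 12% were called higher and 14.8% lower, and the part of these cells in the *PTGIS* values was not tested.

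No P cow was high for every enzyme. Cow 01 had the highest value of the P cows in 4 of the 10 enzymes (*PTGS2*, *PTGES*, *PTGES2* and *AKR1B1*), cow 18 in 3 (*PLA2G4A*, *PLA2G4B* and *PTGIS*), and cows 27, 28 and 29 in 1 each. Cow 19, the P cow with the deepest library, was lowest in 4 and highest in 0.

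Ratios of 2 enzymes within a cow were compared because they do not depend on the size factor of the library, apart from the pseudocount of 1. The log2 ratio of *PTGES* to *AKR1B1* sets a PGE2 synthase against a PGF2A synthase. It was -2.13, -2.63, -2.28, -3.28, -0.96 and -1.28 in P cows 01, 18, 19, 27, 28 and 29, against -6.06, -3.70, -3.01, -3.70, -2.98 and -4.22 in NP cows 05, 22, 30, 31, 32 and 42. Of the P cows, 5 were above all NP cows, and cow 27 lay within their range. The mean was -2.09 ± 0.86 in P and -3.95 ± 1.14 in NP cows (SD, n = 6 each), a difference of 1.85 (two-sided exact permutation p = 0.00649, adjusted over 3 ratios p = 0.0195). Neither gene had passed by itself, and how often ratios of other gene pairs would pass was not tested. The extreme ratios rest on few reads, with 2 reads of *PTGES* in NP cow 05 and 6 of *PTGES* and 12 of *AKR1B1* in P cow 28. Without NP cow 05 the difference was 1.43 (adjusted exact permutation p = 0.039), and without P cow 28 it was 1.63 (adjusted exact permutation p = 0.039). Without P cows 01, 18 and 28 the difference was 1.67, and the adjusted exact permutation p was 0.214.

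The other 2 ratios did not pass. The log2 ratio of *PTGS2* to *PTGS1* averaged -0.26 ± 1.11 in P and -0.64 ± 0.36 in NP cows (exact permutation p = 0.444, n = 6 each), with 3 P cows above and 2 below all NP cows. The log2 ratio of *PTGS2* to *HPGD*, the enzyme that starts the breakdown of prostaglandins, averaged -0.94 ± 1.09 in P and -0.24 ± 0.79 in NP cows (exact permutation p = 0.223, n = 6 each), with 0 P cows above and 2 below all NP cows. Adjusted over the 3 ratios, p was 0.444 and 0.334.

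**Figure D4:**
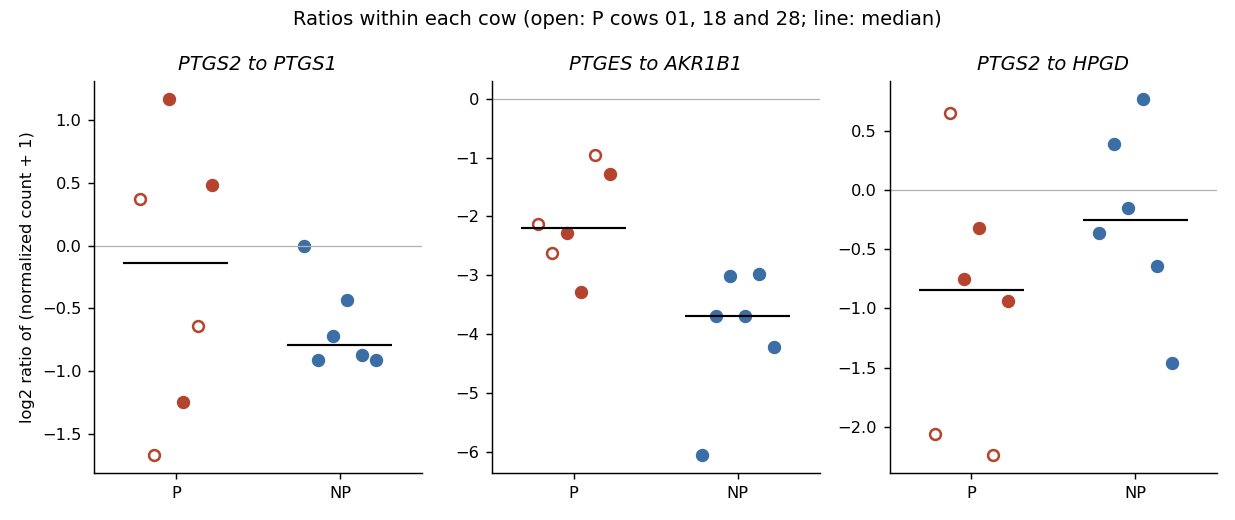
Log2 ratio of 2 normalized counts within each cow (pseudocount 1), P left and NP right, for *PTGS2* to *PTGS1*, *PTGES* to *AKR1B1* and *PTGS2* to *HPGD*. Each point is 1 cow, open points are P cows 01, 18 and 28, and the line is the median. For *PTGES* to *AKR1B1*, 5 of 6 P cows lie above all NP cows.

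Other genes of the pathway were grouped by step, and the counts per step were not tested against the 12% of all tested genes called higher and the 14.8% called lower. *HPGD* passed the filter through P cows alone, and *MBOAT2*, *ALOX12* and *SLCO3A1* through NP cows alone, the group in which each was high, so their calls carry no weight in the counts. Among 11 tested genes of other phospholipases A2 and their modulators, 1 was higher and 4 were lower in P cows, with a median log2 fold change of -0.27 beside -0.01 over all tested genes. *PLA2G6*, a calcium-independent phospholipase, rose to 204.8 ± 82.6 normalized counts in P, against 108.6 ± 17.3 in NP, with no overlap (log2 fold change 0.84, adjusted p = 0.0102). *PNPLA8*, another calcium-independent phospholipase, fell to 23.5 ± 9.49 in P cows, against 58.7 ± 23.5 in NP cows. The phospholipase A2 activating protein gene *PLAA* and *ANXA1*, whose product annexin A1 restrains phospholipase A2, were lower as well (log2 fold changes -0.82 and -0.70). Without P cows 01, 18 and 28, *PNPLA8* (-1.28) and *PLAA* (-0.82) were still called, whereas *PLA2G6* (0.42, adjusted p = 0.116) and *ANXA1* (-0.72, adjusted p = 0.125) were not.

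Of 9 tested genes of the step that returns arachidonate to membranes, 0 were higher and 3 lower in P cows (median log2 fold change -0.37, against 14.8% of all tested genes called lower). These were *LPCAT3* (318.3 ± 101 in P, 574.7 ± 185 in NP), *ACSL3* and *MBOAT2*. The last passed the filter through NP cows alone and carries no weight in this count. Without those 3 cows *LPCAT3* (-0.59, adjusted p = 0.163) and *ACSL3* (-0.60, adjusted p = 0.169) were not called. *MBOAT2* was at -2.13 there, again past the filter through NP cows alone, so its call carries no weight. Of 3 tested terminal synthases outside the list (*PRXL2B*, *CBR1* and *TBXAS1*), 0 passed. Among 7 genes of lipoxygenases, leukotriene synthesis and related lipid enzymes, *GPX4*, which reduces lipid peroxides, was higher (8498 ± 993 in P, 5062 ± 1458 in NP). *ALOX12*, past the filter through NP cows alone, was lower (11.56 ± 6.96 in P, 33.15 ± 13.6 in NP). Without the 3 cows *GPX4* was still called (0.81), *EPHX1*, an epoxide hydrolase named here after its values were seen, was newly called higher (0.80, adjusted p = 0.0489), and *ALOX12* was not called although its log2 fold change was larger in size (-1.80, against -1.56 with all cows, adjusted p = 0.0535).

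Downstream of synthesis, 3 of 5 tested genes of the receptor list were called, against 26.8% of all tested genes. This list also holds *PTGFRN*, which the study describes as an inhibitor of the PGF2A receptor and which is not itself a prostaglandin receptor. Of 8 tested genes of the breakdown and uptake list 4 were called, and whether the product of each acts on prostaglandins in the CL was not tested. Of these, *HPGD* and *SLCO3A1* passed the filter only through the group in which each was high, so this count is not set against that share. *HPGD* rose to 43.16 ± 42.2 normalized counts in P, against 10.04 ± 6.71 in NP (log2 fold change 1.64, SE 0.59, adjusted p = 0.0423) and *CBR3* was higher, whereas *SLCO3A1* and *CBR4* were lower. *PTGFR*, the PGF2A receptor, fell to 1418 ± 616 in P cows, against 4819 ± 1818 in NP cows (log2 fold change -1.79, SE 0.34, adjusted p = 0.00193), *PTGFRN* was lower and the thromboxane receptor gene *TBXA2R* was higher. Without P cows 01, 18 and 28 the 3 genes of the receptor list were still called (*PTGFR* at -1.31). Of 7 tested genes of the breakdown and uptake list 0 were called there. That fit called 12.2% of all tested genes (4.2% higher, 8.04% lower). There *CBR4* (-0.95, adjusted p = 0.0671) and *SLCO3A1* (-1.01, adjusted p = 0.0556) kept log2 fold changes near those with all cows (-0.95 and -1.15), *CBR3* was at 0.35 (adjusted p = 0.392, against 0.63 with all cows), and *HPGD* fell under the filter. The study also named *HPGD*, *CBR3*, *PTGFR* and *PTGFRN* on these samples and measured *HPGD* in them by qPCR. In its granulosa cells treated with interferon tau it reported *HPGD* as higher and *PTGFR* as lower.

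**Figure D5:**
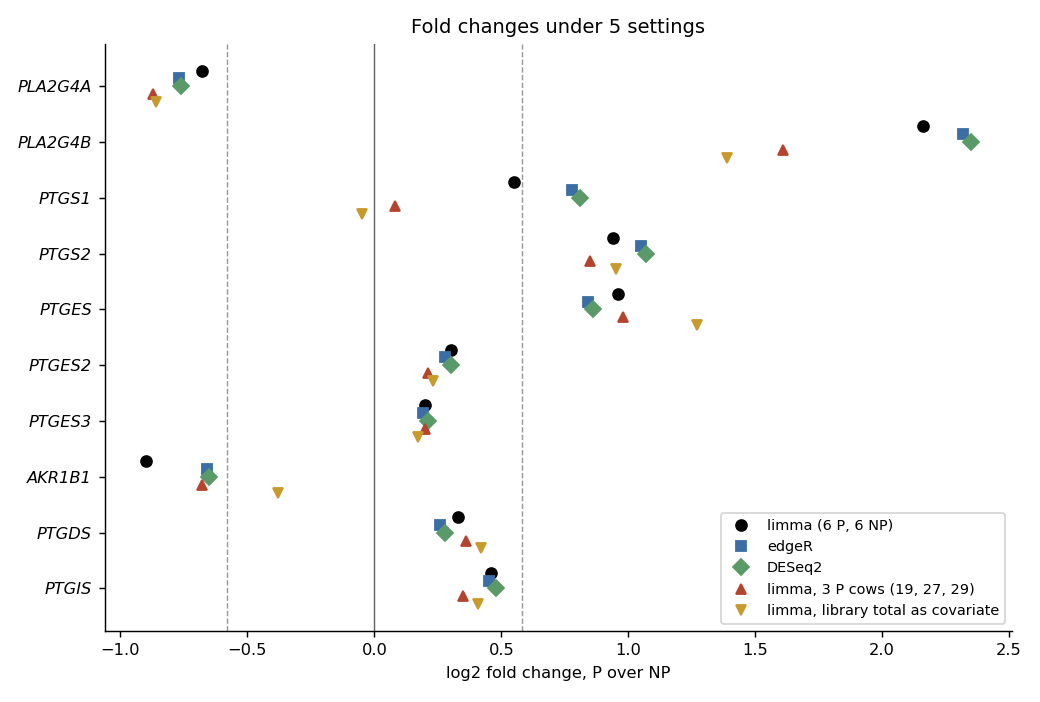
Log2 fold change of each enzyme, P over NP, by limma, edgeR and DESeq2 on all 12 cows, by limma with 3 P cows (19, 27 and 29) against 6 NP cows, and by limma with library depth as a covariate (*PTGS2* fitted without the filter). Dashed lines mark -0.58 and 0.58. *PLA2G4B* stays between 1.39 and 2.35, and *PTGS1* lies between -0.05 and 0.81.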

How the data were processed

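Single-end poly-A libraries were made from 1 CL each of 6 P and 6 NP cows. The authors trimmed reads with cutadapt, mapped them to ARS-UCD1.2 with STAR 2.4.2a and Ensembl genes, and counted them with htseq-count. The signal values deposited by the authors are these counts divided by the DESeq2 size factors, rounded to 2 decimals. The table also holds the authors' own fold changes and p-values, which were not used. Dividing by the smallest step of each library gave back the reads (at least 99.99% of values were whole within 0.0051). In P cow 27 a read is worth close to 1 normalized count (0.99), so that whole values there are a weak check, and its reads were used in edgeR and DESeq2 all the same. Groups and cow numbers come from the sample titles. The labels give 1 library per cow.

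The main test was limma 3.58.1 in R 4.3.3 on log2(value + 1), with its trend option. It covered 11907 genes that reached 30 normalized counts in any cow, with Benjamini-Hochberg adjustment over all of them. Fold changes on this scale understate the change of low genes. *PTGS2* was fitted without the filter, a choice made after its values were seen. The named genes are the 10 enzymes and up to 4 genes of smallest p per related list. The members and lists were chosen with earlier results of these data known. Alternatives were edgeR 4.0.16 with TMM, DESeq2 1.42.0, other pseudocounts (0.5 and 5), filters (none and 60) and scaling (TMM), leaving out cows, and the log2 of the library total as a covariate. The limma, edgeR and DESeq2 fits without a covariate were checked on simulated libraries. False calls made up 5.56% of the calls by limma, 5.98% by edgeR and 13.9% by DESeq2. The limit on false calls, first set for all of them, was then kept for limma and edgeR alone. The simulation changed few genes and gave every gene the same variability between cows, so it does not measure the error rates in these data. Of the 10 enzymes, 9 matched by symbol the RefSeq gene table of the Tharparkar assembly (Sahiwal x Tharparkar cross). Sequences and gene positions in ARS-UCD1.2 were not used here.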

Additional observations from a re-analysis of the deposited data

Results flagged for a closer look

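*PTGS2* in P cow 01 had 27.69 normalized counts, far above the other P cows (10.28 to 16.39). The gap to the next cow was 0.649 of the range of the 6 P cows, beyond Dixon's 95% limit for 6 values. It was 1 of 26 groups of 6 cows examined (10 enzymes and 3 ratios in P and NP), and chance marks about 1 in 20 such groups. Without this cow the log2 fold change of *PTGS2* was 0.76 (limma adjusted p = 0.0853).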

How the results depend on the processing

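*PLA2G4B* was called higher under all 22 alternatives (log2 fold change 1.39 to 2.43), and *PTGES2*, *PTGES3*, *PTGES*, *PTGDS* and *PTGIS* kept their sign and were called under none. Over all genes 3197 were called, 1410 without P cows 01, 18 and 28 and 510 with library depth as a covariate. The 3 shallowest libraries are all of P cows, so that depth and group are partly confounded in these settings. The enzymes called higher were 2 without the filter by limma and by edgeR, since *PTGS2* then entered. The enzymes called lower were 1 in place of 0 by edgeR (with and without the filter), DESeq2 and TMM scaling, in each case *PLA2G4A*, and 0 to 1 when single cows were left out. *PTGS1* turned to -0.05 with library depth as a covariate. The *PTGES* to *AKR1B1* difference was 1.67 and no longer passed without P cows 01, 18 and 28, where 3 P cows remained, and 1.43 to 2.09 when single cows were left out. The cause of these changes was not tested, and no other set of 3 P cows was left out. *PTGS1*, *PTGS2* and *PTGES*, with 2 to 47 reads per library, are limited by depth. No paired analysis was possible because the groups share no cow numbers.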
